A study of Homo sapiens with 16 samples.

Results

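The response to azacitidine described here is the set of genes whose RNA moved in 1 direction in all 4 acute myeloid leukaemia (AML) cell lines of the study. AML-193, HNT-34, KG1a and HL60 were each given DMSO vehicle or 0.5 µM azacitidine (AZA) daily for 3 days and then grew for 4 days without drug, with 2 arrays in each of the 8 groups and 16 arrays in all. All groups, the vehicle arms included, grew in a medium made for isotope labelling that held unlabelled lysine and arginine, and RNA was read from frozen pellets on Affymetrix U133 Plus 2.0 arrays. AML-193, HNT-34, KG1a and HL60 are established leukaemia lines, so each stands for 1 patient's leukaemia in culture, and no unit of replication beyond these 4 lines was measured. The labels name the replicate arrays of a group but do not say that they came from separate cultures. The p-values therefore measure the spread between these arrays, which may be technical.

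For each of 14038 genes tested, AZA minus vehicle was taken within each line on the log2 scale, and the 4 differences were averaged with equal weight. A gene belongs to the shared response when its 4 differences have the same sign, and 2802 genes did (20% of those tested), 1792 of them higher (12.8%) and 1010 lower (7.19%). Of these, 2175 were also past an adjusted p of 0.05 for the mean difference (15.5%), and they are called shared genes below. A smaller set of 145 genes passed the threshold in each line separately, in 1 direction (1.03%). The sign of the same differences chose these genes, so their sharing of a sign is not a finding in itself.

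Azacitidine is a cytidine analogue that enters RNA and DNA. In DNA it traps DNA methyltransferases, and cells that go on dividing lose methylation at cytosines followed by guanine (CpG sites). Germline genes of the cancer-testis class are a well-known group held silent by promoter methylation in somatic cells. ATF4 is the transcription factor through which cells short of amino acids or under endoplasmic reticulum stress switch on amino acid synthesis, amino acid import and tRNA charging. Many of its targets carry a composite C/EBP-ATF response element near their start.

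Arrays of the same group correlated at 0.995 to 0.998 over the tested genes, arms of 1 line at 0.969 to 0.989 and different lines at 0.796 to 0.91. All 13 measured markers of myeloid leukaemia identity passed the brightness filter. The leukocyte gene PTPRC read 10.91 to 13.25 over the 16 arrays and the epithelial gene EPCAM 3.84 to 4.46, below the array median of 6.73 on every array. EPCAM does not stand for its list, as 19 of 30 epithelial genes on the arrays passed the filter. The mean level of those 19 was 7.31 to 7.95 on vehicle and 7.64 to 8.16 on AZA arrays. The T cell gene CD3E read 7.45 to 9.21, above the array median on all 16 arrays. MECOM was above that median on the 4 arrays of HNT-34 alone, and the monocyte gene CD14 on 6 arrays. As a sign of RNA integrity, the signal at the 3′ end less that at the 5′ end was averaged over the control probe sets for ACTB and GAPDH, and it differed between the arms of 2 lines. It was 1.27 ± 0.463 (SD, n = 2) in AML-193 vehicle and 0.198 ± 0.0433 after AZA, and 0.0443 ± 0.0116 in HL60 vehicle and 0.722 ± 0.163 after AZA. HNT-34 and KG1a lay between -0.111 and 0.122 in both arms.

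The mean difference alone called 5600 genes (39.9%), 3279 higher (23.4%) and 2321 lower (16.5%). These shares are the background for counts called for the mean alone. The 2175 shared genes split into 1351 higher (9.62%) and 824 lower (5.87%), which is the background for shared rises and falls below. Another 3425 genes were called for the mean while their signs differed between lines. Each line's difference was also tested, within the same fit of all 8 groups and with their pooled replicate spread. The calls were 5751 in AML-193 (41.0%), 4245 in HNT-34 (30.2%), 1394 in KG1a (9.93%) and 5794 in HL60 (41.3%). The split between higher and lower depends on the scaling: 62.1% of shared genes were higher on the deposited values, 42.6% after a further quantile normalization and 89.6% after centring on housekeeping genes, while the median of all genes moved by -0.04 and 0.083. The centring used the median level of the housekeeping genes on each array and did not level their differences. Their median difference was 0.07 on the deposited values and 0.16 after it, and their shared rises went from 21.7% to 34.8%. Counts after this centring are therefore shifted towards rises.

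A shared sign did not mean a shared size. A moderated F-test found that the AZA effect differed between lines for 8010 of the 14038 genes (57.1%). It did so for 989 of the 2175 shared genes (45.5%) and for 96 of the 145 called in every line (66.2%). Among the shared genes, 203 were past the threshold in no single line, 793 in 1 line, 643 in 2, 391 in 3 and 145 in all 4. In 747 shared genes (34.3%) 1 line supplied more than 50% of the summed absolute change, fewer than the 42.2% of all genes tested (5920). KG1a had the smallest absolute difference in 760 shared genes and the largest in 233, and its median absolute difference was 0.18, against 0.26 in AML-193, 0.29 in HNT-34 and 0.25 in HL60. The number of genes whose AZA arrays all lay on 1 side of the vehicle arrays in every line was 834 (5.94%), and 832 of them were shared genes.

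**Figure D1:**
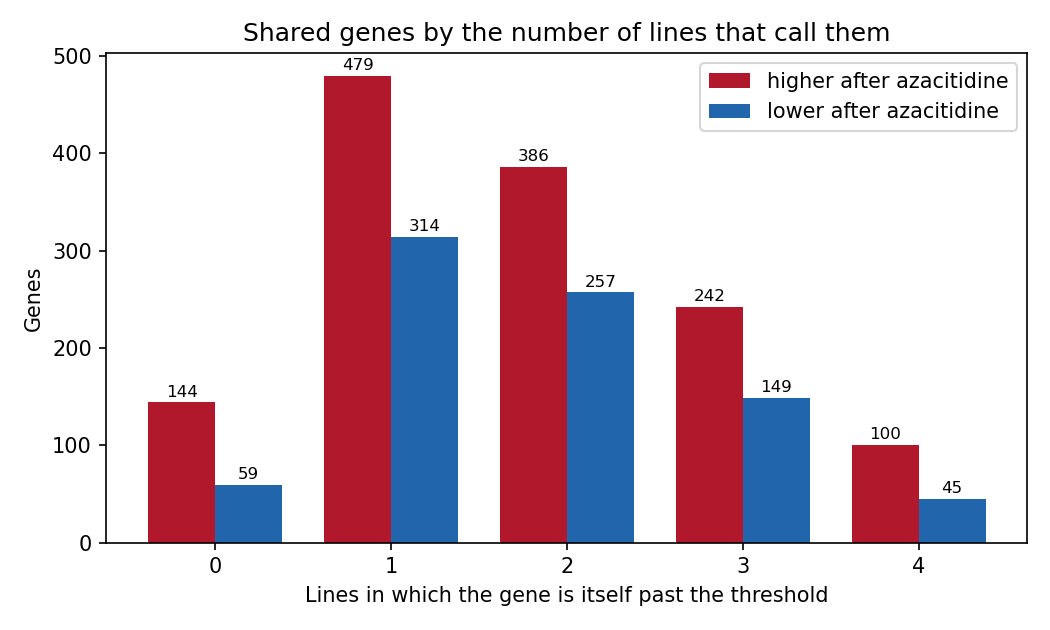
Number of shared genes (vertical axis) by the number of lines, 0 to 4, in which the gene was itself past an adjusted p of 0.05 (horizontal axis), with rises in red and falls in blue. Most shared genes were called in 1 or 2 lines, and 100 rises and 45 falls were called in all 4.

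How firmly a shared change can be stated depends on what counts as a replicate. With the 16 arrays as the unit the counts are as above. With the 4 line differences as 4 replicates, limma called 0 genes at an adjusted p of 0.05, the lowest adjusted p being 0.45, and 1235 genes had an unadjusted p under 0.05. With line as an additive block, where variation between lines enters the residual, 2096 genes were called and 1592 of them had 1 sign in all lines. All 145 genes called in every line were among these additive calls, and 144 of them had an unadjusted p under 0.05 over the 4 line differences. The same 4 differences chose these 145 genes, so their passing is not independent evidence. The statements that follow therefore describe these 4 lines.

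Of the 145 genes called in every line, 100 rose (0.712% of genes tested) and 45 fell (0.321%), so that 69.0% were higher. With the 3′ minus 5′ signal as a covariate 39 genes were called in every line, 46.2% of them higher, and without 1 or the other AZA array of KG1a 91 and 93 were. Of those called after a further quantile normalization 54.6% were higher, and after housekeeping centring 91.5% of 235. They made up 2.52% of the calls in AML-193, 3.42% in HNT-34, 10.4% in KG1a and 2.5% in HL60. Their median absolute difference was 0.57 in AML-193, 0.79 in HNT-34, 0.53 in KG1a and 0.57 in HL60. HNT-34 had the largest change of the 4 lines in 65 of them. A difference of at least 1 log2 unit in every line, 2-fold or more, was found in 7 genes, and all 7 rose: GCNA, MAGEB2, TRPM4, CREB5, PPBP, NFE4 and LINC01088. Just inside the threshold of a call in every line were RSPRY1 and PRR7, whose weakest line had an adjusted p of 0.0491 and 0.0494. Just outside were ZBED3 at 0.0501 and PSAP at 0.0509.

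**Figure D2:**
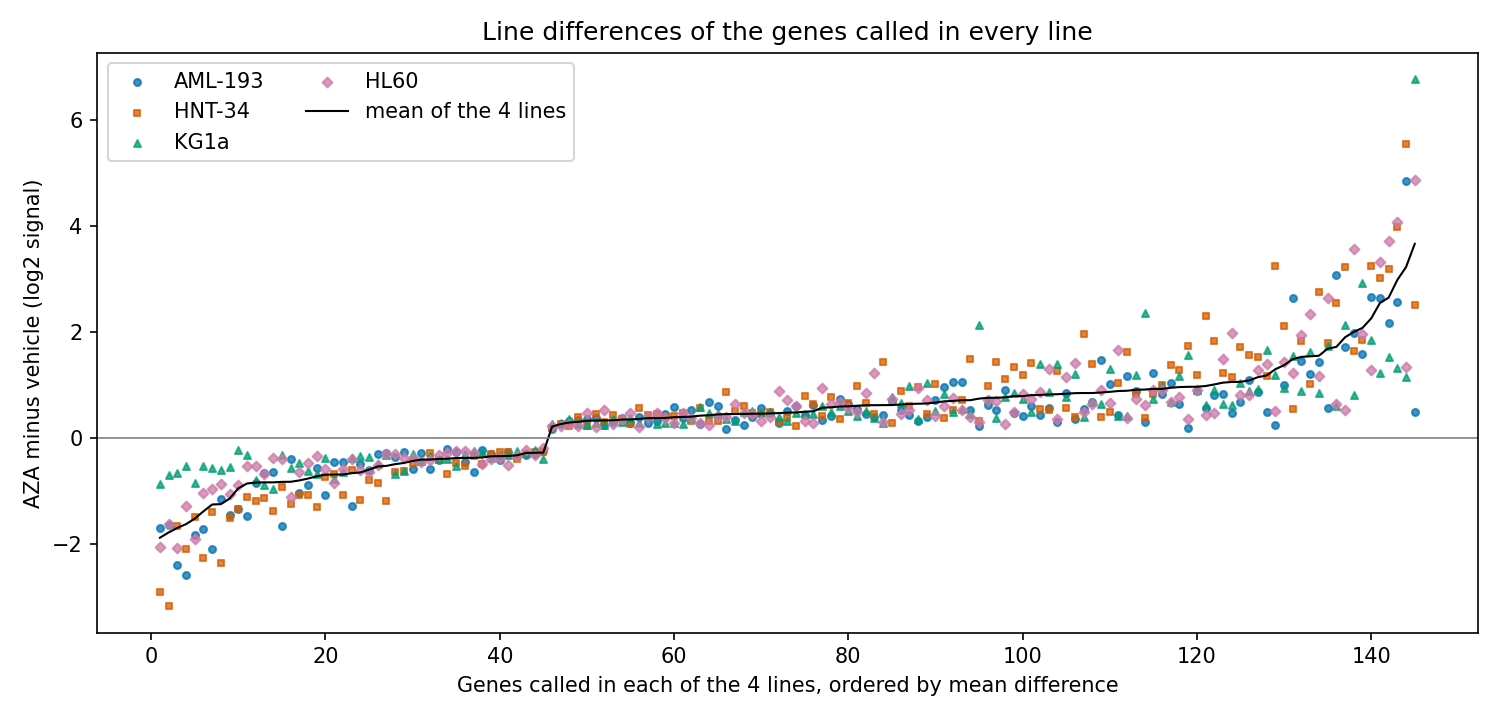
AZA minus vehicle (vertical axis, log2 signal) of the 145 genes called in each of the 4 lines, ordered along the horizontal axis by their mean difference, with 1 symbol per line and the mean as a black line. The 45 falls are on the left and the 100 rises on the right, and the lines spread most among the largest rises.

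Of the 7 genes 2-fold higher in every line, those with a promoter entry start at promoters of different CpG content. The 100 bases before the RefSeq start (assembly GRCh38.p14) are printed 5′ to 3′ on the gene's strand for the 6 that have an entry, with each CpG in capitals; for CREB5 it is the start listed first. They lie at chrX:71578337-71578436 on the plus strand (GCNA), chrX:30215463-30215562 plus (MAGEB2), chr19:49157692-49157791 plus (TRPM4), chr7:28412418-28412517 plus (CREB5), chr4:73988191-73988290 minus (PPBP) and chr4:78971648-78971747 plus (LINC01088).
GCNA: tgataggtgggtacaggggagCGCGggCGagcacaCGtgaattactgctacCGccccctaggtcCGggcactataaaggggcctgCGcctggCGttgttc
MAGEB2: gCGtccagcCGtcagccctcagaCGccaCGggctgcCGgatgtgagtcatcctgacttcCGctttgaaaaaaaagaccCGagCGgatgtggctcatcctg
TRPM4: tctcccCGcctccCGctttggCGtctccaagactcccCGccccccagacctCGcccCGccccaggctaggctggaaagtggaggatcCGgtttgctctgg
CREB5: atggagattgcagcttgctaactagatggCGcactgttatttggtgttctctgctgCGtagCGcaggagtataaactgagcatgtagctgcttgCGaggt
PPBP: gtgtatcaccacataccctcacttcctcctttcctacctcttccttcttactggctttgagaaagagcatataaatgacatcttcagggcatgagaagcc
LINC01088: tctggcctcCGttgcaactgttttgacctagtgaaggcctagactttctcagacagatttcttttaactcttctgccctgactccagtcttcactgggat

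The stretches of GCNA and MAGEB2 hold 8 CpG each and that of TRPM4 holds 7, whereas that of LINC01088 holds 1 and that of PPBP 0. Over the full 300-base windows, 250 before to 50 after the start, the count was 21 in GCNA, MAGEB2 and TRPM4 and 1 in PPBP and LINC01088. Counted as CpG-rich with at least 50% G and C and an observed over expected CpG ratio of at least 0.6, promoters were found for 52 of 79 genes that rose in every line and had a window (65.8%). The share was 32 of 37 for those that fell in every line (86.5%) and 8909 of 11212 for all tested genes with a window (79.5%). By this rule GCNA (ratio 0.87) and MAGEB2 (0.79) were CpG-rich, and TRPM4 (0.59, with 71.0% G and C) was not. Methylation itself was not analysed here.

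GCNA, a germ-cell protein linked to the repair of DNA-protein crosslinks (chrX:71578437-71613583), read 5.75 and 6.19 on the vehicle arrays of AML-193 and 8.48 and 8.58 on its AZA arrays. In HNT-34 it went from 6.85 and 6.72 to 10.71 and 10.82, in KG1a from 7.15 and 7.28 to 8.55 and 8.53, and in HL60 from 6.83 and 6.54 to 10.74 and 10.78. Every AZA array was above every vehicle array of all 4 lines. The mean rise was 2.99 ± 0.06 (SE, adjusted p = 2.41e-12), and KG1a had the smallest rise at 1.33.

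MAGEB2, a melanoma antigen of the cancer-testis class on the X chromosome, read 4.85 and 4.24, then 7.44 and 6.92 after AZA, in AML-193. The corresponding values were 5.41 and 4.65, then 8.09 and 7.99, in HNT-34, and 4.93 and 4.82, then 6.15 and 6.05, in KG1a. HL60 started highest, at 6.81 and 7.15, and reached 10.4 and 10.21. The arms did not overlap within any line, and the mean rise was 2.55 ± 0.12 (SE, adjusted p = 4.89e-09).

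TRPM4, a calcium-activated cation channel of the plasma membrane, was under the array median on all 8 vehicle arrays, at 5.21 to 6.48. Its AZA values were 7.56 and 7.62 in AML-193, 9.66 and 9.64 in HNT-34, 6.72 and 6.9 in KG1a and 9.42 and 9.64 in HL60. At such dim signals these arrays understate folds. The mean rise was 2.65 ± 0.09 (SE), from 1.54 in KG1a to 3.71 in HL60.

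CREB5, a transcription factor that binds cyclic AMP response elements, rose by 1.59 in AML-193, 1.85 in HNT-34, 2.93 in KG1a and 1.97 in HL60, and KG1a, the least responsive line over all shared genes, had its largest rise. Vehicle values lay between 5.31 and 7.49 and AZA values between 6.98 and 9.48, with no overlap within a line. The gene's 3 bright probe sets gave mean rises from 0.4 to 2.08, so its size depends on the probe set.

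PPBP encodes the platelet basic protein, precursor of the chemokine CXCL7. It went from 6.3 and 6.37 to 11.14 and 11.25 in AML-193 and from 4.79 and 5.52 to 10.68 and 10.74 in HNT-34, but only from 6.35 and 6.34 to 7.7 and 7.3 in KG1a and from 5.27 and 5.02 to 6.61 and 6.36 in HL60. The rises of 4.86 and 5.56 in the first pair of lines and of 1.16 and 1.34 in the other pair differed by the F-test (adjusted p = 6.32e-08). In HL60 even the treated arrays stayed below the array median.

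NFE4, a factor known from the control of fetal globin genes, rose by 2.66, 3.25, 1.85 and 1.28 in AML-193, HNT-34, KG1a and HL60. HL60 differed in level, reading 9.72 and 9.97 on vehicle arrays where the other lines lay between 5.06 and 5.82. LINC01088, a long non-coding RNA, rose by 1.2, 1.01, 1.62 and 2.34 in the same order. Its vehicle level was 11.11 and 11.27 in HNT-34 and 11.11 and 10.89 in KG1a, against 6.42 to 6.87, around the array median, in the other lines.

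**Figure D3:**
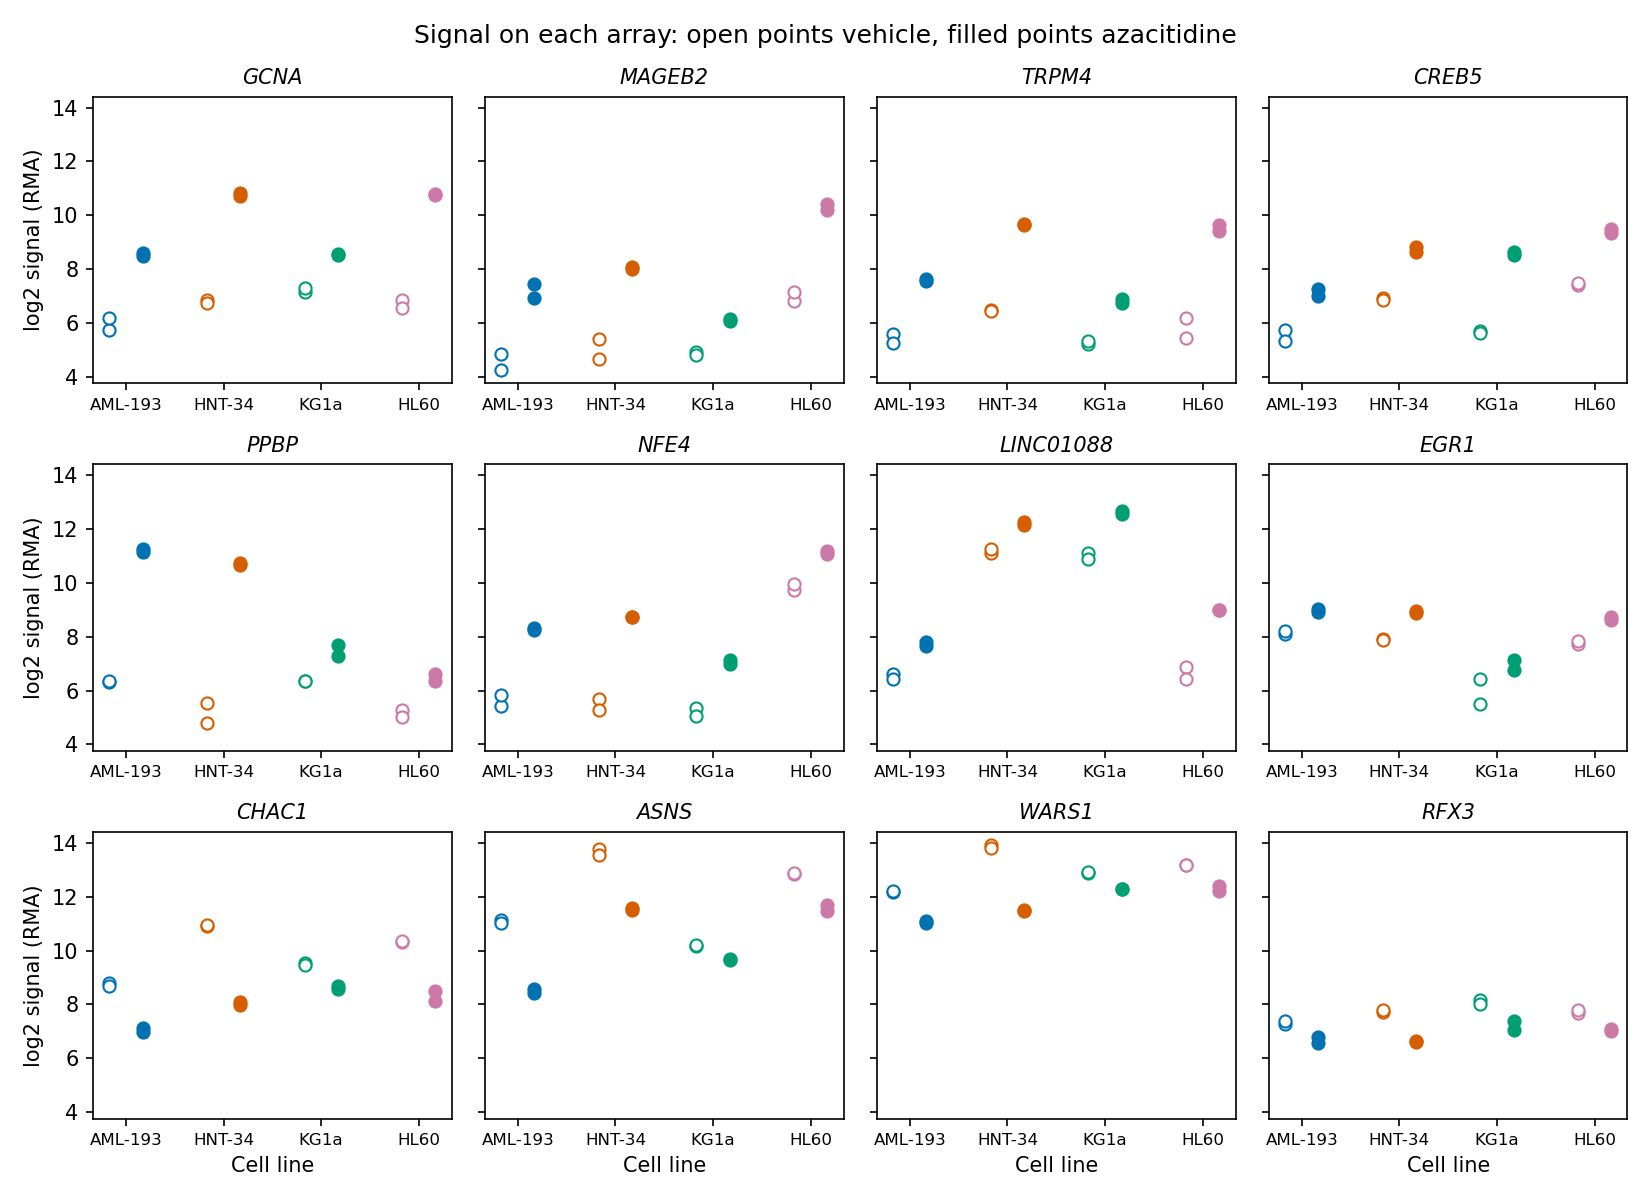
log2 signal (vertical axis) of 12 genes on each of the 16 arrays by cell line (horizontal axis), with open points for vehicle and filled points for AZA. The upper 8 panels show rises and the lower 4 falls, and within every line the filled points lie on 1 side of the open points.

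Several of the largest mean rises were carried by fewer lines. ZNF595, a zinc finger gene, had the highest mean, 4.13 ± 0.06 (SE), made of 6.47 in HNT-34, 6.42 in HL60 and 3.44 in KG1a, while AML-193 gave 0.20 with an adjusted p of 0.232. Its 8 vehicle arrays lay between 4.41 and 4.81, and HNT-34 reached 11.25 after AZA. COL14A1, which encodes collagen XIV, rose by 6.77 in KG1a, 4.88 in HL60, 2.52 in HNT-34 and 0.5 in AML-193, and its 3 bright probe sets gave means from 0.46 to 3.67. CLC, the Charcot-Leyden crystal protein of eosinophils and basophils, rose by 6.6 in HL60 and 4.42 in KG1a and moved by 0.13 and 0.27, not past the threshold, in AML-193 and HNT-34.

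DCAF4L1 rose in AML-193 (3.6), HNT-34 (1.97) and HL60 (4.55), and its difference of 0.36 in KG1a had an adjusted p of 0.105. S100A6, a calcium-binding protein, rose by 3.06 in HNT-34, 1.17 in KG1a and 3.77 in HL60. AML-193 already read 13.16 and 13.11 for it without drug, and its difference was 0.07. LGALS3BP, a secreted galectin ligand, rose in all 4 lines, by 1.99, 1.64, 0.82 and 3.57 in AML-193, HNT-34, KG1a and HL60.

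**Figure D4:**
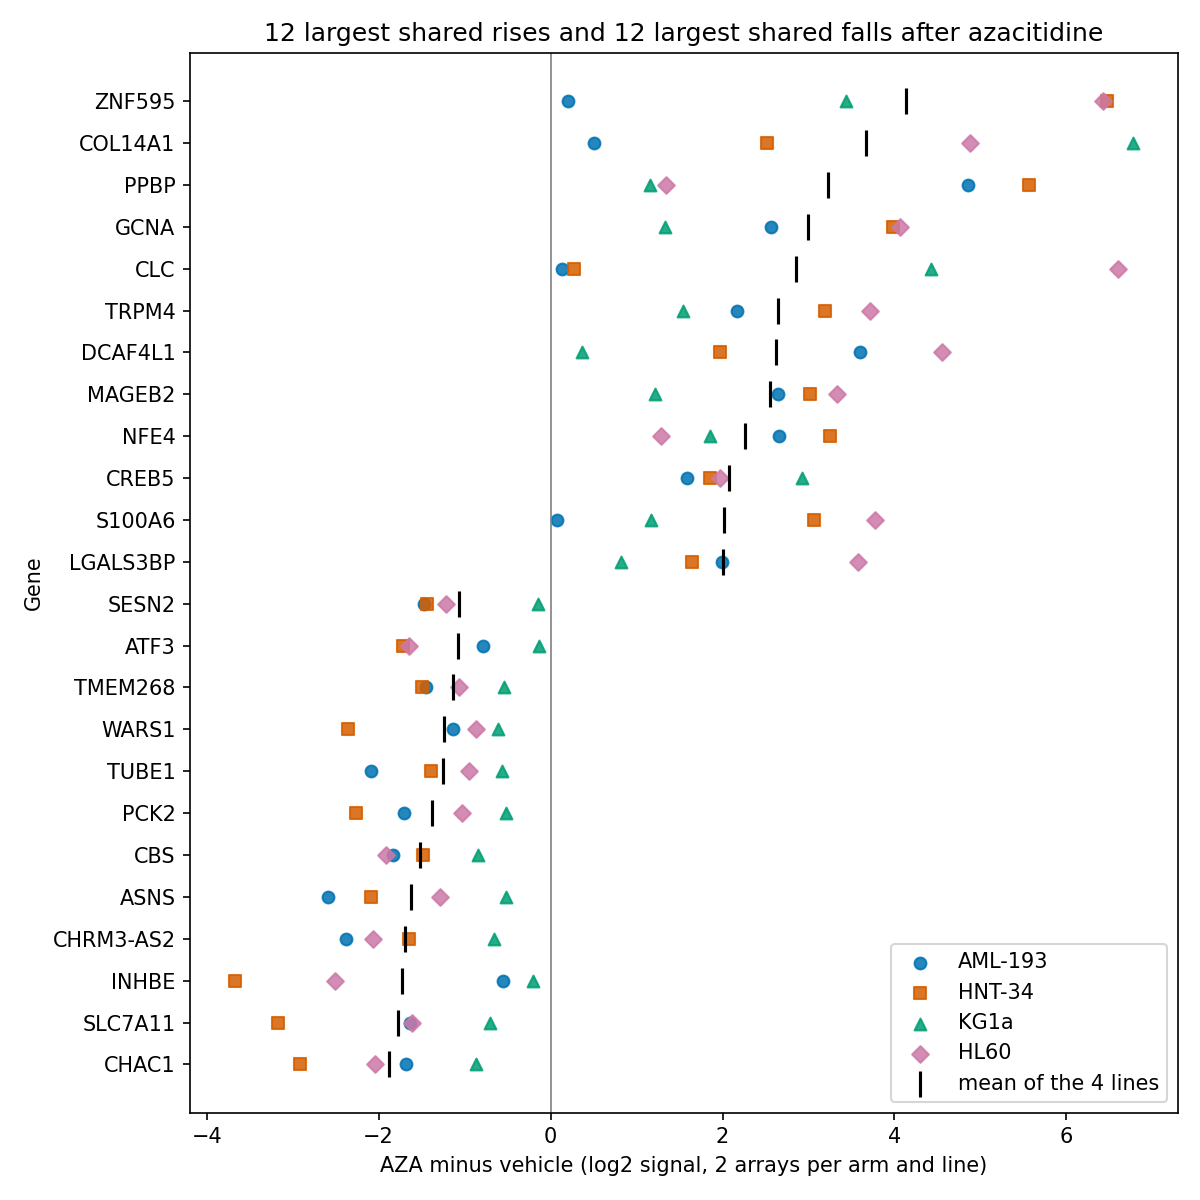
AZA minus vehicle (horizontal axis, log2 signal) for the 12 shared genes with the largest mean rise and the 12 with the largest mean fall (vertical axis), with 1 symbol per line and a bar at the mean. ZNF595, CLC and S100A6 have a line near 0, and the KG1a symbol is the closest to 0 of the 4 for every fall shown.

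Among cancer-testis antigens, 32 genes were on the arrays and 15 passed the brightness filter, 6 of them only through AZA arrays. Of the 32, 10 rose with 1 sign and 0 fell, and the rises numbered 5 after a further quantile normalization and 6 with the 3′ minus 5′ signal as a covariate. Apart from MAGEB2 the size lay mainly in HNT-34. MAGEA4 rose by 5.21 there and by 0.36 and 0.6 in AML-193 and HL60, and MAGEA6 rose by 2.84 in HNT-34 and 1.35 in HL60. SSX1 rose by 1.98 in HNT-34, 1.23 in HL60 and 0.84 in AML-193, and its KG1a difference was 0.08. The germ cell and piRNA list had 6 shared rises and 1 fall among 45 genes on the arrays. Of these, 18 were tested, 3 of them having passed the filter only through AZA arrays. TDRD9, a helicase of the piRNA pathway, rose in every line, by 0.44 in AML-193, 0.55 in HNT-34, 1.4 in KG1a and 0.87 in HL60. STAG3, the meiotic cohesin subunit, rose by 0.41, 0.46, 0.38 and 1.24. TKTL1, on the same list, shows the opposite case: 89.4% of its summed change came from HL60, where it rose by 6.11.

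In bulk RNA, fewer cells of a type and less RNA per cell cannot be told apart, and this holds for the groups of maturation markers that follow. Of 48 monocyte and macrophage markers on the arrays 43 were tested, 7 of them having passed the filter only through AZA arrays. Of all 14038 genes 381 had passed in that way. Among the 43, 14 rose with 1 sign (32.6%) and 1 fell, and 4 rose in every line. The filter admits genes that are bright only after AZA, so this share is partly fixed when set against 9.62% of all genes. The same holds for the granulocyte, T and NK cell, megakaryocyte and erythroid lists below. The median difference of the monocyte and macrophage list was 0.29 (all genes 0.03) and ran from 0.03 in HNT-34 to 0.83 in AML-193. TYROBP, the adaptor that signals for myeloid activating receptors, went from 10.3 and 10.39 to 11.98 and 12.17 in AML-193, from 8.87 and 8.8 to 12.08 and 12.03 in HNT-34 and from 8.64 and 8.75 to 10.84 and 10.84 in KG1a. HL60, highest before treatment at 12.34 and 12.36, gained least and reached 12.85 and 12.89. The mean rise was 1.9 ± 0.04 (SE, adjusted p = 2.32e-12).

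FCER1G, the Fc receptor gamma chain, rose by 2.18, 2.38 and 1.12 in AML-193, HNT-34 and KG1a and moved by 0.08 in HL60. LYZ, lysozyme, rose in all 4 lines by 0.82, 1.84, 0.92 and 0.48, although HNT-34 started at 6.8 and HL60 at 12.79 or higher. For LYZ 1 of its 2 bright probe sets did not keep 1 sign, nor did 1 of the 2 of FCER1G. CD86, the costimulatory ligand, rose by 1.19, 1.27 and 1.34 in AML-193, HNT-34 and KG1a, with 0.13 in HL60. Granulocyte markers had 12 shared rises and 0 falls among 40 tested (30.0%), 4 of which had passed the filter only through AZA arrays. The count was 6 after a further quantile normalization (15%, against 6.62% of all genes) and 7 under the additive block (17.5%, against 6.89%). ELANE, neutrophil elastase, rose by 3.67 in AML-193 and 2.78 in HL60, and its differences of 0.09 in HNT-34 and 0.65 in KG1a were not past the threshold.

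FABP4 and CCL7 had 1 sign in all lines and a called mean, yet AML-193 supplied 97.0% and 95.4% of their summed change, with rises of 5.41 and 3.25. In the other lines FABP4 moved by at most 0.08 and CCL7 by at most 0.14. Without AML-193 their means were 0.06 and 0.05, with adjusted p of 0.397 and 0.535. SPP1, osteopontin, was intermediate, with 3.76 in AML-193, 1.2 in KG1a, 0.52 in HL60 and 0.18 in HNT-34.

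Genes of the lysosome, where the cell degrades proteins and lipids, had 10 shared rises and 0 falls among 34 tested (29.4%), with a median of 0.20 and 24 of 34 called higher for the mean. NEU1, the lysosomal sialidase, rose by 0.92, 1.11, 0.78 and 0.27 in AML-193, HNT-34, KG1a and HL60. Its vehicle arrays lay between 9.85 and 10.31 and its AZA arrays between 10.32 and 11.24, so the arms did not overlap even across lines. CTSH, cathepsin H, rose by 2.44, 1.01 and 1.41 in AML-193, KG1a and HL60, with 0.19 in HNT-34. CTSD, cathepsin D, rose by 0.9, 0.51 and 1.48 in AML-193, HNT-34 and HL60, with 0.31 in KG1a. CTSZ rose in every line, by 0.64 to 1.5, on the probe set used, whereas the means of its 2 bright probe sets were -0.03 and 1.05.

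Some chaperones and folding enzymes of the endoplasmic reticulum were shared rises. Of 25 tested genes of the unfolded protein response, 12 rose with 1 sign (48%) and 1 fell (4.00%), and 3 rose in every line. CRELD2, a folding factor of the reticulum, went from 10.79 and 10.8 to 11.23 and 11.24 in AML-193, from 10.3 and 10.07 to 11.21 and 11.23 in HNT-34, from 10.66 and 10.77 to 11.13 and 11.14 in KG1a and from 10.4 and 10.36 to 12.18 and 11.92 in HL60. PDIA3, a protein disulfide isomerase, rose by 0.61, 0.24, 0.48 and 0.61. SDF2L1 rose by 0.52, 0.6 and 0.77 in AML-193, HNT-34 and HL60 with 0.4 in KG1a (adjusted p = 0.0519), and its effect was not called different between lines (F-test adjusted p = 0.298). CALR, calreticulin, drew 62.8% of its change from HL60. With the 3′ minus 5′ signal as a covariate the list's shared rises fell to 7, and the part of that signal in the result was not tested.

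Structural and matrix genes also rose in part. Of 31 tested fibroblast and matrix genes, 9 rose with 1 sign (29.0%), 0 fell and 4 rose in every line. TIMP1, an inhibitor of matrix metalloproteinases, rose by 0.89, 0.84, 1.2 and 0.73, from 11.52 and 11.99 to 12.7 and 12.58 in AML-193, for example, and the lines were not called different (F-test adjusted p = 0.106). VIM, vimentin, rose by 2.64 in AML-193, 1.55 in KG1a and 1.23 in HL60 but by 0.56 in HNT-34, which carried it at 13.39 and 13.25 before treatment. ANXA2, a membrane-binding annexin, rose by 1, 2.13, 0.94 and 1.44, and its 3 bright probe sets gave 1.26 to 1.38.

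EGR1, an immediate early transcription factor, rose by 0.83 in AML-193, 1.01 in HNT-34, 0.99 in KG1a and 0.9 in HL60 (F-test adjusted p = 0.935), with a mean of 0.93 ± 0.11 (SE). Its 3 bright probe sets gave means from 0.27 to 0.96. TUBB2A, a beta tubulin chosen for mention after its values were seen, rose by 0.9, 1.18, 0.9 and 0.9 (F-test adjusted p = 0.532). RGS2, a regulator of G-protein signalling chosen in the same way, rose by 1.46, 1.83, 0.9 and 1.95. CD82, a tetraspanin of the cell surface, rose by 0.75, 0.36, 0.61 and 0.69 (F-test adjusted p = 0.0963).

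Genes of stress and growth arrest moved in both directions. CDKN1A, the cyclin-dependent kinase inhibitor p21, rose by 1.17, 1.08 and 0.89 in AML-193, HNT-34 and KG1a, and by 0.36 with an adjusted p of 0.0584 in HL60. BIK, a BH3-only member of the BCL2 family, rose in every line by 0.68, 1.73, 1.04 and 0.81. BCL2, the survival factor that names the family, was a shared fall, with differences of -0.82, -0.87 and -0.35 in AML-193, HNT-34 and KG1a and -0.08 in HL60 (adjusted p = 0.379), and its 4 bright probe sets gave means from -0.53 to -0.07. The BCL2 family had 2 shared rises and 2 shared falls among 18 tested (11.1% each). PMAIP1, a BH3-only p53 target, was a shared fall too, with differences of -0.99, -0.58 and -0.68 in AML-193, HNT-34 and HL60 and -0.15 in KG1a (adjusted p = 0.635). The p53 target list as a whole, with 4 shared rises and 2 falls among 31 tested, was near the background on the deposited values (12.9% and 6.45%). After housekeeping centring 11 rose and 4 fell (35.5% and 12.9%, against 16.2% and 1.89% of all genes). Metallothioneins and NRF2 targets had 10 shared rises and 1 fall among 26 (38.5% and 3.85%). HMOX1, heme oxygenase, rose by 1.83, 0.82 and 1.02 in AML-193, HNT-34 and HL60, with 0.42 in KG1a, and MT1X rose by 1.09 in HNT-34 and 1.51 in HL60. Among 20 histone genes, 5 rose and 1 fell with 1 sign (25% and 5%, against 9.62% and 5.87% of all genes). After a further quantile normalization 4 rose and 3 fell (20% and 15%, against 6.62% and 8.92%). H2AC6 (1.17, 1.62, 0.42 and 0.38) and H2BC12 (0.53, 1.49, 0.46 and 0.4) rose in every line.

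Some markers of other lineages were shared rises. T and NK cell markers had 11 shared rises and 0 falls among 35 tested of 46 on the arrays (31.4%), 5 of the 35 having passed only through AZA arrays, and the rises numbered 7 after a further quantile normalization and 6 with the 3′ minus 5′ covariate. Their mean level was 6.79 to 7.68 on vehicle arrays and 6.91 to 8.11 on AZA arrays, near the array median. CD3D rose in every line, but KG1a supplied 71.2% of it, with 2.13 against 0.23 to 0.33 elsewhere. Megakaryocyte and platelet markers had 8 shared rises and 0 falls among 32 (25%), 4 of the 32 having passed only through AZA arrays, with mean levels of 6.61 to 8.08 on vehicle and 6.8 to 9.02 on AZA arrays. This count depends on the processing: it was 3 after a further quantile normalization (9.38%, against 6.62% of all genes), 4 with the 3′ minus 5′ covariate, 5 under the additive block and 14 after centring on housekeeping genes (43.8%, against 16.2%). CPA3, a mast cell protease, rose by 0.5, 1.17, 1.66 and 1.4. Erythroid markers had 4 shared rises and 0 falls among 28 (14.3%), 3 of the 28 having passed only through AZA arrays. There was 1 rise under the additive block (3.57%, against 6.89% of all genes) and 2 after quantile normalization (7.14%, against 6.62%). After housekeeping centring 12 rose (42.9%, against 16.2%). B cell markers had 1 shared rise among 21 (4.76%), below the 9.62% of all genes. The part of such cells in the rises of PPBP or CD3D was not tested.

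**Figure D5:**
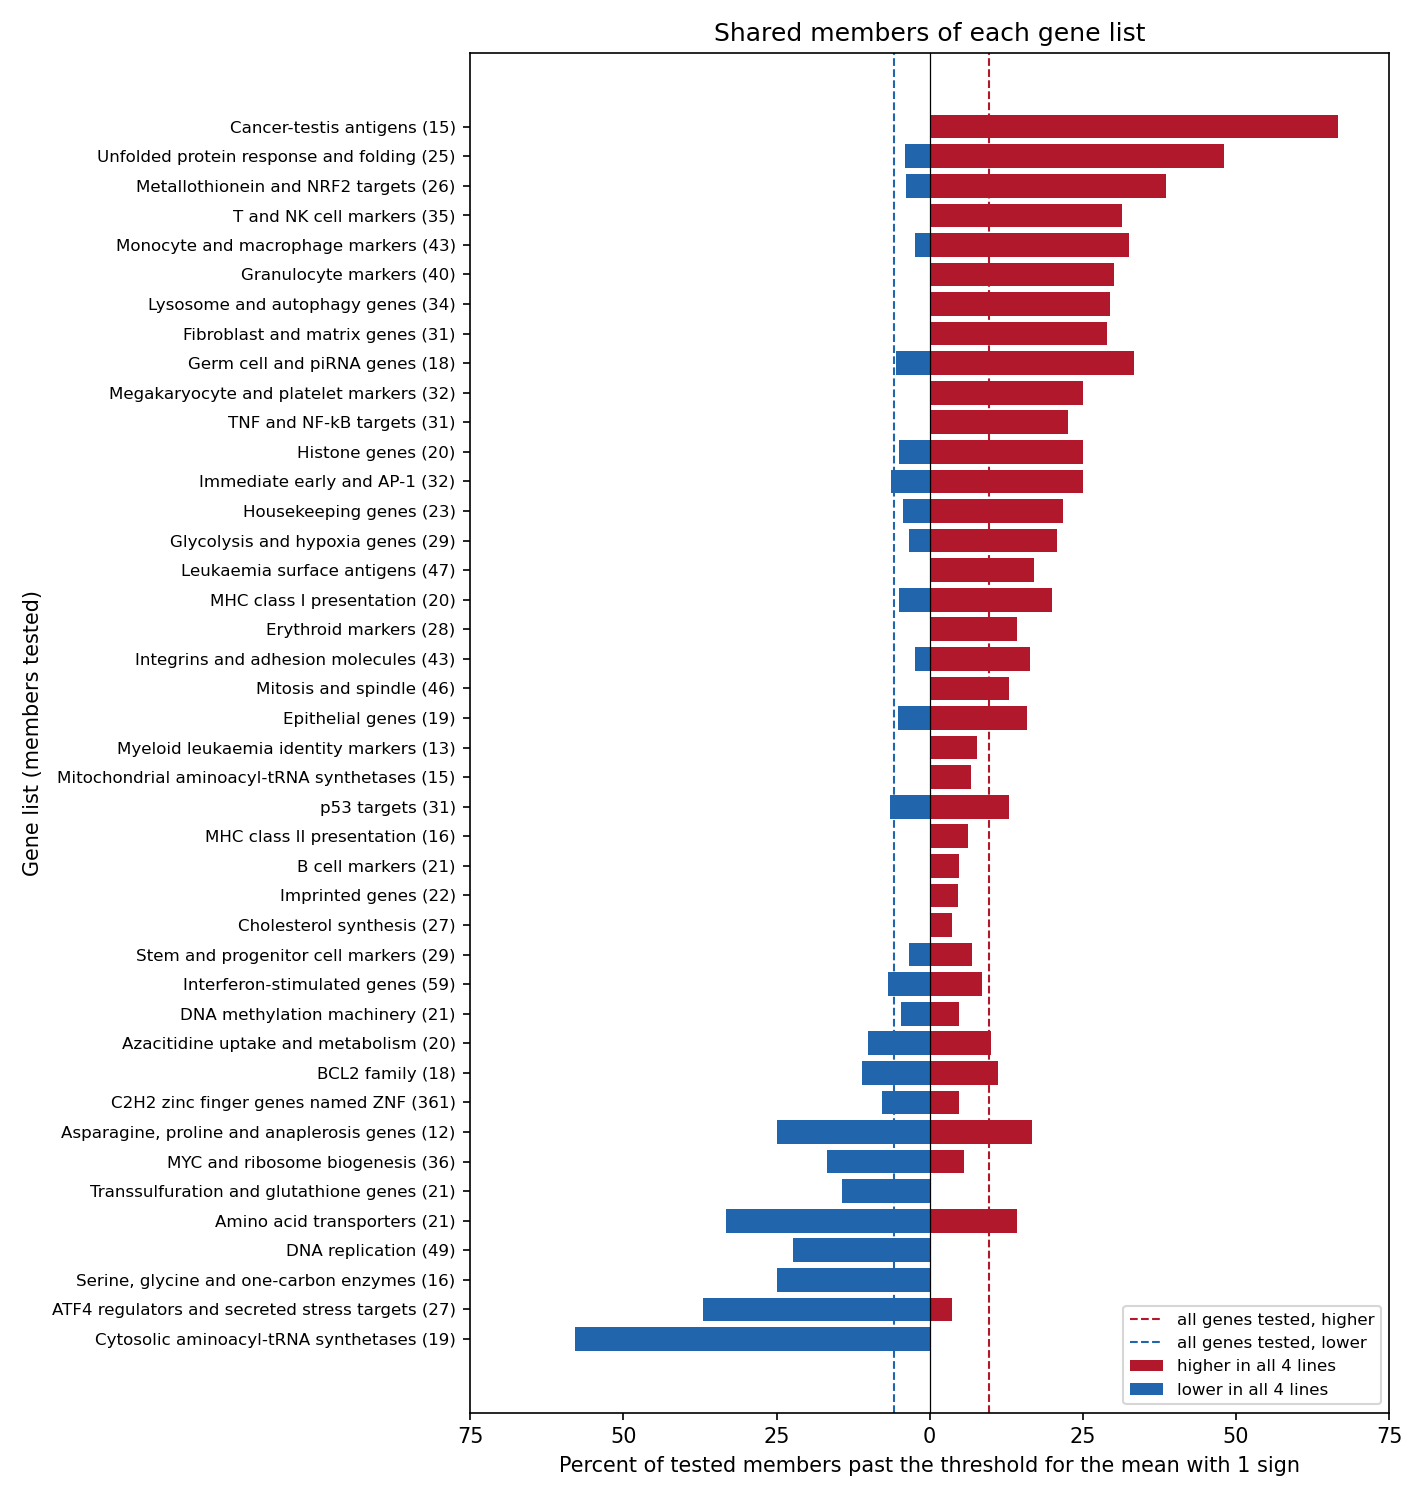
Percent of tested members (horizontal axis) of each gene list with at least 10 tested members (vertical axis, number tested in brackets) that were called for the mean with 1 sign, higher to the right in red and lower to the left in blue. Dashed lines mark all genes tested, 9.62% higher and 5.87% lower; cytosolic aminoacyl-tRNA synthetases are farthest to the left. Members that passed the filter only through AZA arrays numbered 6 of 15 cancer-testis antigens, 7 of 43 monocyte and 5 of 35 T and NK cell markers. They also numbered 4 of 40 granulocyte, 4 of 32 megakaryocyte and 3 of 28 erythroid markers, 3 of 18 germ cell genes and 3 of 31 TNF targets. Of all 14038 genes 381 passed in that way. The red bars of lists with such members are therefore not a measure against all genes.

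Among the falls, genes of amino acid supply were frequent. Of the 12 largest mean falls, CHAC1, SLC7A11, INHBE, ASNS, CBS, PCK2, WARS1, ATF3 and SESN2 were members of lists of ATF4 targets or of amino acid metabolism, and CHRM3-AS2, TUBE1 and TMEM268 were on none. Of 27 tested ATF4 regulators and secreted stress targets, 10 fell with 1 sign (37.0%, against 5.87% of all genes) and 1 rose, and 4 fell in every line. The median of this list was -0.49 in AML-193, -0.75 in HNT-34, 0.02 in KG1a and -0.63 in HL60. These lists were written with the earlier results of these data known, so their direction is not independent evidence.

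Promoters of genes that fell in every line were searched for the letters TGATGNAA on both strands, a form of the C/EBP-ATF response element, in all RefSeq windows of a gene. It was present in 9 of 37 genes with a window (24.3%), in 2 of 79 that rose in every line (2.53%) and in 326 of 11212 tested genes with a window (2.91%). Counted by window, the shares were 15.5%, 1.8% and 2.12%. Among all 676 shared falls with a window it was present in 37 (5.47%). A match describes the letters and says nothing of binding. The match of TMEM268 spans its start. The other 8 are shown with 18 bases on each side, 5′ to 3′ on the gene's strand, with the match in capitals (TTNCATCA is the same letters on the other strand). In GRCh38.p14 they lie at chr7:97872451-97872494 on the minus strand (ASNS), chr15:40953244-40953287 plus (CHAC1), chr16:70289668-70289711 minus (AARS1), chr7:30594827-30594870 plus (GARS1), chr12:24949124-24949167 minus (BCAT1), chr1:239719134-239719177 minus (CHRM3-AS2), chr1:27341958-27342001 plus (SYTL1) and chr1:9069774-9069817 minus (SLC2A5).
ASNS: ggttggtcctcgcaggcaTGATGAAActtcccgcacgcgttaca
CHAC1: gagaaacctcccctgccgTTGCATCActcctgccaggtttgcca
AARS1: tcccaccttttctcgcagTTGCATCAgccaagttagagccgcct
GARS1: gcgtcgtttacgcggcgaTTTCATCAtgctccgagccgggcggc
BCAT1: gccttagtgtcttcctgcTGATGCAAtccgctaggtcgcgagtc
CHRM3-AS2: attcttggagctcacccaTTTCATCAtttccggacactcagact
SYTL1: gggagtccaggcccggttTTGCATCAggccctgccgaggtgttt
SLC2A5: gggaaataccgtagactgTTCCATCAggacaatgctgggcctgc

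The match begins 68 bases before the listed start in ASNS, 209 in CHAC1, 187 in AARS1, 33 in GARS1, 48 in BCAT1, 40 in CHRM3-AS2, 46 in SYTL1 and 164 in SLC2A5. ASNS, CHAC1, AARS1, GARS1 and BCAT1 encode an asparagine synthetase, a glutathione-degrading enzyme, 2 tRNA synthetases and a transaminase of branched-chain amino acids, while CHRM3-AS2 is a non-coding RNA.

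CHAC1, which breaks down glutathione and is induced by ATF4, had the largest mean fall. It went from 8.78 and 8.68 to 7.11 and 6.98 in AML-193, from 10.93 and 10.96 to 8.08 and 7.99 in HNT-34, from 9.53 and 9.46 to 8.56 and 8.7 in KG1a and from 10.33 and 10.36 to 8.49 and 8.11 in HL60. The arms were apart in every line, and the mean difference was -1.88 ± 0.05 (SE, adjusted p = 4.47e-11). After AZA the lines were closer together, at 6.98 to 8.7, than before, at 8.68 to 10.96.

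ATF4 itself, named after its values were seen, fell in every line. It read 14.03 and 14.01, then 12.74 and 12.73, in AML-193, and 14.05 and 14.05, then 13.48 and 13.42, in HNT-34. In KG1a it read 13.69 and 13.6, then 13.25 and 13.32, and in HL60 14.16 and 14.15, then 13.78 and 13.75. Its differences were -1.28, -0.6, -0.36 and -0.39. ATF3, a partner factor, fell in AML-193 (-0.79), HNT-34 (-1.72) and HL60 (-1.65), with -0.14 in KG1a, and 1 of its 2 bright probe sets did not keep 1 sign. SESN2, a sestrin that restrains growth signalling when amino acids are short, fell, with differences of -1.47, -1.44 and -1.22 in AML-193, HNT-34 and HL60, with -0.15 in KG1a. INHBE, an activin subunit, fell, with differences of -3.67 in HNT-34, -2.51 in HL60 and -0.55 in AML-193, and was under the array median on all 8 AZA arrays. TRIB3, a pseudokinase target of ATF4 named after its values were seen, was not a shared gene: it fell, with differences of -1.31, -2.51 and -1.01 in AML-193, HNT-34 and HL60 and rose by 0.43 in KG1a (adjusted p = 0.0165).

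Aminoacyl-tRNA synthetases attach amino acids to their tRNAs. Of the 19 cytosolic ones on the arrays, all tested, 13 fell for the mean, 11 of them with 1 sign (57.9%), 5 fell in every line and 0 rose past the threshold. The list's median was -0.37 in AML-193, -0.58 in HNT-34, -0.18 in KG1a and -0.37 in HL60. WARS1, for tryptophan, went from 12.19 and 12.2 to 11.1 and 11.01 in AML-193 and from 13.93 and 13.81 to 11.49 and 11.53 in HNT-34. In KG1a it went from 12.89 and 12.91 to 12.28 and 12.31, and in HL60 from 13.18 and 13.2 to 12.41 and 12.23. AARS1, for alanine, fell, with differences of -1.33, -1.34, -0.23 and -0.88, and GARS1, for glycine, fell, with differences of -1.47, -1.1, -0.32 and -0.53. CARS1, for cysteine, fell, with differences of -1.43, -0.9 and -0.65, with -0.26 in KG1a (adjusted p = 0.0604). The 15 mitochondrial synthetases, encoded by other genes, had 1 shared rise and 0 shared falls. For the mean alone 5 of the 15 fell and 1 rose, where 16.5% of all genes fell. In HNT-34 and KG1a alone 5 fell with 1 sign (33.3%, against 13.2% of all genes). Housekeeping-centred values still gave 8 shared falls among the cytosolic synthetases (42.1%, against 1.89% of all genes).

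ASNS, asparagine synthetase, fell from 11.15 and 11.01 to 8.41 and 8.57 in AML-193 and from 13.77 and 13.54 to 11.53 and 11.6 in HNT-34. The fall was smaller in HL60, from 12.85 and 12.89 to 11.48 and 11.69, and smallest in KG1a, from 10.19 and 10.21 to 9.67 and 9.7. PCK2, the mitochondrial enzyme that feeds amino acid carbon into phosphoenolpyruvate, fell, with differences of -1.7, -2.26, -0.52 and -1.03. Its 8 AZA arrays lay between 9.07 and 9.61 and its vehicle arrays between 9.6 and 11.42. PYCR1, of proline synthesis, fell, with differences of -0.4, -0.89 and -0.24 in AML-193, HNT-34 and HL60, with -0.26 in KG1a, and BCAT1 fell, with differences of -1.07, -0.73, -0.37 and -0.57.

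Amino acid transporters had 7 shared falls (33.3%) and 3 shared rises (14.3%) among 21 tested. SLC7A11, the cystine and glutamate exchanger, went from 10.94 and 10.87 to 9.2 and 9.34 in AML-193, from 11.02 and 11.21 to 7.91 and 7.98 in HNT-34, from 10.48 and 10.23 to 9.61 and 9.7 in KG1a and from 11.14 and 11.05 to 9.45 and 9.52 in HL60. No AZA array reached a vehicle array of any line. SLC7A5, a carrier of large neutral amino acids, fell, with differences of -1.22, -1.28 and -0.51 in AML-193, HNT-34 and HL60, and SLC3A2, its partner chain, fell, with differences of -0.63, -1.31 and -0.94. The KG1a difference was -0.07 for each of these. SLC1A5, a glutamine carrier, fell, with differences of -0.43, -1.51 and -0.73 in those lines, with -0.34 in KG1a (adjusted p = 0.163).

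The list of serine, glycine and one-carbon enzymes had 4 shared falls and 0 shared rises among 16 tested (25%), and 9 falls with the 3′ minus 5′ covariate. SHMT2, the mitochondrial serine hydroxymethyltransferase, fell, with differences of -1.66, -0.92, -0.31 and -0.4, and MTHFD2 fell, with differences of -1.18, -0.56 and -0.5, and -0.08 in KG1a. The first enzymes of the pathway were not shared, as their values, given after they were seen, show. PHGDH fell, with differences of -2.66, -0.87 and -1.3 in HNT-34, KG1a and HL60 and rose by 0.38 in AML-193. PSAT1 fell by 3.61 in HL60, fell by 1.07 in KG1a and rose by 0.74 in AML-193.

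In transsulfuration, which turns homocysteine into cysteine, CBS fell in every line, with differences of -1.83, -1.48, -0.84 and -1.91. It read 9.87 and 9.76, then 7.98 and 7.98, in AML-193 and 11.04 and 10.97, then 9.14 and 9.06, in HL60. Of its 3 bright probe sets, 2 kept 1 sign. CTH, the next enzyme, fell by 3.04 in AML-193 and fell by 0.3 in HL60, with 0.15 and 0.26 in HNT-34 and KG1a. Among the 21 genes of that list, 3 fell and 0 rose with 1 sign (14.3%).

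Outside these lists, CHRM3-AS2 fell from 9.07 and 8.95 to 6.62 and 6.63 in AML-193, with differences of -1.65, -0.66 and -2.07 in HNT-34, KG1a and HL60. TUBE1, epsilon tubulin, fell, with differences of -2.09, -1.39, -0.57 and -0.95, and TMEM268 fell, with differences of -1.45, -1.5, -0.54 and -1.06. RFX3, a transcription factor of cilia genes, fell, with differences of -0.65, -1.13, -0.87 and -0.68, from 7.27 and 7.37 to 6.56 and 6.78 in AML-193 and from 8.18 and 8.01 to 7.4 and 7.05 in KG1a, and the lines were not called different (F-test adjusted p = 0.0639).

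DNA replication genes had 11 shared falls and 0 shared rises among 49 (22.4%), none of them called in every line, with a median of -0.15. MCM6, of the replicative helicase, fell, with differences of -0.35, -0.52 and -0.21 in AML-193, HNT-34 and HL60, with -0.17 in KG1a, and RFC2, of the clamp loader, fell by 0.45 in HNT-34 and fell by 0.57 in HL60. With the arrays centred on housekeeping genes 1 replication gene fell and 1 rose with 1 sign (2.04% each, against 1.89% and 16.2% of all genes). The falls numbered 8 under the additive block (16.3%, against 4.45% of all genes). They numbered 14 with the 3′ minus 5′ covariate (28.6%, against 7.0%) and 23 without AML-193 (46.9%, against 9.99%). Mitosis and spindle genes did not follow: 6 rose and 0 fell with 1 sign among 46 (13%). After housekeeping centring 11 rose (23.9%, against 16.2% of all genes). UBE2C, an enzyme of mitotic exit, rose by 0.18, 0.88, 0.37 and 0.4.

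DNMT1, the maintenance methyltransferase that the drug traps, lay between 11.38 and 11.73 on vehicle and 11.05 and 11.54 on AZA arrays, which overlap. Its mean difference was -0.24 ± 0.05 (SE, adjusted p = 0.0012), with 1 sign, and HNT-34 alone was past the threshold (-0.46). DNMT3A differed by 0.01 ± 0.04, not past the threshold. DNMT3B fell by 1.23 in AML-193 and rose by 0.36 in HL60, and UHRF1, which guides DNMT1, fell by 0.85 in HNT-34 and fell by 0.22 in AML-193 and rose by 0.41 in HL60. Of 21 tested genes of the DNA methylation machinery 1 rose and 1 fell with 1 sign (4.76% each). Their median was -0.17 in AML-193, -0.11 in HNT-34, -0.09 in KG1a and 0.26 in HL60. Without HL60 12 fell with 1 sign (57.1%, against 13.2% of all genes), and without AML-193 1 did (4.76%, against 9.99%). TET2, which oxidises methylcytosine, rose by 1.09, 0.53 and 0.75 in AML-193, HNT-34 and HL60, with 0.13 in KG1a. The reference genes GAPDH and ACTB had mean differences of 0.01 ± 0.03 and 0.16 ± 0.03, and that of ACTB was past the threshold.

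In other groups few genes had 1 sign in all 4 lines. Of 59 interferon-stimulated genes, 25 were higher and 12 lower for the mean, but 5 rose and 4 fell with 1 sign (8.47% and 6.78%), near the background. The list's median was -0.17 in AML-193, 0.15 in HNT-34, 0.06 in KG1a and 0.14 in HL60. Without AML-193, 17 of the 59 rose with 1 sign (28.8%, against 14.9% of all genes), in HNT-34 and KG1a alone 22 did (37.3%, against 15.5%), and after housekeeping centring of all 4 lines 12 did (20.3%, against 16.2%). IFI27 rose by 1.9 in HNT-34 and 0.96 in KG1a. Of 27 cholesterol synthesis genes 1 rose with 1 sign, the list's median being -0.43 in AML-193 and 0.43 in HNT-34. That gene, IDI1, drew 72.2% of its change from HNT-34, and its bright probe sets gave means from -0.06 to 0.37. Of 16 tested genes of MHC class II presentation 1 rose with 1 sign, and of 361 zinc finger genes named ZNF 17 rose (4.71%) and 28 fell (7.76%), so ZNF595 stood apart from its family.

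At the edge of the call for the mean, RHOXF1 (0.16), PPP2CA (-0.10) and TLR6 (-0.22) were just inside, with adjusted p of 0.0494, 0.0494 and 0.0498. CIRBP-AS1 (0.13), MYEOV (0.13) and B3GAT1-DT (0.14) were just outside, with 0.0505, 0.0507 and 0.0508.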

How the data were processed

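Values are log2 signals per probe set, deposited by the authors; the submitters' processing notes name affy and RMA, and versions were not given in the sources used here. Every array had a median of 6.73. Probe sets with exactly 1 gene symbol (41097 of 54675) were kept, and the 1 with the highest mean stood for each gene. A gene was tested when 2 or more of the 16 arrays read it at or above the array median. All 8 groups were fitted together in limma 3.58.1 (R 4.3.3, 8 residual and 4.8 prior degrees of freedom), with the mean of the 4 AZA minus vehicle differences, each line's difference and a moderated F-test between lines as contrasts, adjusted by Benjamini-Hochberg over 14038 genes at 0.05. The fit was run on simulated data with the same shift in all 4 lines and independent noise. Such data cannot show how it behaves where effects differ between lines or replicates are technical.

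Genes are named by these rules: the 12 largest rises and falls among shared genes, the 8 rises and falls with the largest smallest difference among genes called in each line, up to 4 shared members of each list by size, DNMT1, DNMT3A, DNMT3B, UHRF1, GAPDH and ACTB, and those beside the threshold. Not all list members the rules allow are named. Members and lists were chosen with earlier results of these data known. Promoters are RefSeq windows of GRCh38.p14, matched by symbol for 11212 genes. With 2 arrays per group the precision is limited, and replicate numbers pair no arrays.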

Additional observations from a re-analysis of the deposited data

Results flagged for a closer look

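For 83 of the genes named above the moderated F-test found that the AZA effect differed between lines, and the widest gap between the effects of 2 lines is given here on the log2 scale. Among shared rises the gap was 6.47 for CLC, 6.27 for ZNF595, 6.27 for COL14A1, 5.96 for TKTL1, 5.37 for FABP4, 5.06 for MAGEA4, 4.40 for PPBP, 4.19 for DCAF4L1, 3.70 for S100A6, 3.58 for SPP1, 3.58 for ELANE and 3.24 for CCL7. In further rises it was 2.76 for LGALS3BP, 2.74 for GCNA, 2.71 for MAGEA6, 2.70 for TYROBP, 2.30 for FCER1G, 2.25 for CTSH, 2.17 for TRPM4, 2.10 for MAGEB2 and 2.08 for VIM. Other rises had a gap of 1.97 for NFE4, 1.90 for CD3D, 1.90 for SSX1, 1.66 for IFI27, 1.41 for HMOX1, 1.36 for LYZ, 1.34 for MT1X, 1.34 for CREB5, 1.33 for LINC01088, 1.26 for CRELD2, 1.24 for H2AC6, 1.20 for CD86, 1.18 for ANXA2 and 1.17 for CTSD. Rises with a gap nearer 1 were at 1.16 for CPA3, 1.11 for CALR, 1.09 for H2BC12, 1.05 for RGS2 and 1.04 for BIK. The gap of the narrower rises was 0.96 for TET2, 0.96 for TDRD9, 0.95 for IDI1, 0.86 for STAG3, 0.85 for CTSZ, 0.84 for NEU1, 0.82 for CDKN1A, 0.70 for UBE2C, 0.37 for PDIA3 and 0.31 for ACTB.

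Among shared falls the gap was 3.47 for INHBE. In further falls it was 2.47 for SLC7A11, 2.07 for ASNS and 2.03 for CHAC1. Other falls had a gap of 1.75 for WARS1, 1.74 for PCK2, 1.72 for CHRM3-AS2, 1.58 for ATF3, 1.52 for TUBE1, 1.35 for SHMT2, 1.32 for SESN2, 1.24 for SLC3A2, 1.21 for SLC7A5, 1.18 for CARS1, 1.17 for SLC1A5, 1.14 for GARS1, 1.11 for AARS1, 1.09 for MTHFD2 and 1.07 for CBS. The narrower falls had gaps of 0.97 for TMEM268, 0.92 for ATF4, 0.85 for PMAIP1, 0.79 for BCL2, 0.70 for BCAT1, 0.65 for PYCR1, 0.49 for RFC2 and 0.35 for MCM6. Of the genes named without being shared, the gap was 4.35 for PSAT1, 3.30 for CTH, 3.03 for PHGDH, 2.93 for TRIB3, 1.60 for DNMT3B and 1.26 for UHRF1.

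Probe sets with no gene symbol or with several lay outside the comparisons. Of 5758 that passed the same filter, 532 were called for the mean with 1 sign and 14 in each of the 4 lines in 1 direction (0.243%), 6 higher and 8 lower. They are unnamed here.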

How the results depend on the processing

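With line as an additive block 2096 genes were called for the mean, and with the 4 line differences as replicates 0 were called and 0 shared. Genes called in each line numbered 235 after centring on housekeeping genes and 39 with the 3′ minus 5′ signal as covariate, where 4401 genes differed between lines. Leaving out AML-193 gave 3500 shared genes and 347 called in each line, and leaving out HL60 gave 3918 and 324. Leaving out KG1a gave 2588 and 390, and leaving out HNT-34 gave 2331 and 168. With a line left out fewer lines must share a sign, and the part of this in the counts was not tested. HNT-34 and KG1a alone gave 4038 shared genes, 822 called in each line and 2339 that differed between lines. Without 1 array at a time 4883 to 5844 genes were called for the mean, 1999 to 2272 were shared, 91 to 161 were called in each line and 7065 to 8139 differed between lines. The 91 and 93 came without 1 or the other AZA array of KG1a. All 145 genes called in each line kept the direction of their mean where present, 142 of them with the mean of probe sets and 139 under the stricter filter. Leaving out lines could not reverse it, because their differences share 1 sign. Among named genes DNMT3B reversed to 0.11 without AML-193, and CTH to 0.04 there and to 0.20 with HNT-34 and KG1a alone. Under the additive block MAGEA4, TKTL1, FABP4, CCL7, DNMT3B, UHRF1, PSAT1 and CTH were no longer called. Having 2 arrays per group and signals near background limits all sizes. No paired analysis was possible because the replicate numbers are only names.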
